A study of Danio rerio with 12 samples.

Results

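The genes her1, her7, dlc, dld, tbx16, tbx6, msgn1, mespaa, mespab and ripply1, which act in the paraxial mesoderm and in its segmentation, were followed across whole zebrafish embryos at the tailbud stage. They were taken by symbol, 10 of the 32520 genes of the count table, and all 10 were found, passed the filter on low counts and were tested. The total RNA of pools of 109 TU strain embryos was sequenced in 12 libraries, 3 in each of 4 groups. All embryos had received 1 ng of a morpholino at the 1 to 2 cell stage, and all were exposed from 5.3 to 10 hours after fertilisation, when they were frozen. Control DMSO embryos carried a standard control morpholino and were kept in the solvent DMSO. Control leflunomide embryos carried the same morpholino and were kept in 7 µM leflunomide, which blocks pyrimidine synthesis at the enzyme made from dhodh. The tif1g DMSO and tif1g leflunomide embryos carried a morpholino that blocks translation of tif1g (trim33), a transcriptional cofactor, with the same respective treatments. The design asks which transcripts depend on tif1g, which on pyrimidine synthesis, and whether one alters the effect of the other. Each clutch was shared out between the treatments. The sources used here do not say whether a replicate number stands for a clutch. The main p-values set each difference against the spread between these pools, with the libraries unpaired. Deviations from the group means correlated at 0.156 to 0.274 between libraries of the same number.

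In zebrafish, the presomitic mesoderm of the tail is cut into somites in step with a molecular oscillator, the segmentation clock. The clock runs on transcriptional repressors of the Her family that shut off their own genes, and Delta ligands acting on Notch receptors keep neighbouring cells in phase. T-box and Msgn1 factors establish the presomitic mesoderm, and Mesp and Ripply factors act at its anterior end, where the next boundary will form. At the tailbud stage the clock is running and no somite has yet separated.

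Library totals were 27574593 to 32088082 counts. The trim33 transcript stood at 71.2 to 85.6 TMM-scaled CPM in the 6 control libraries and at 373 to 433 in the 6 tif1g libraries, and since the morpholino blocks translation this RNA level is no measure of the knockdown. These CPM are counts relative to a library total that was scaled with edgeR's TMM factors, and they are not divided by transcript length, so levels are compared between libraries and not between genes. In RNA of whole embryos, fewer cells of a type and less RNA per cell cannot be told apart. Changes are log2 fold changes ± SE from 3 libraries a group, tested with edgeR's quasi-likelihood test, and a gene was called at a Benjamini-Hochberg adjusted p under 0.05 over 21400 genes. "With the replicate block" refers to the same test with the replicate number added to the model.

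After knockdown of tif1g in DMSO, 1 of the 10 genes was called, mespab, which was lower by 25.4%. Of all genes tested, 32.8% were called in that comparison. The median change of the 10 genes was -0.09 against 0.00132 for all genes, and the median size of the change was 0.09 against 0.30. Among the 14122 genes at or above the mean level of the lowest of the 10, 42.3% were called and the median size was 0.24. After knockdown in leflunomide, 0 of the 10 were called by edgeR against 23.8% of all genes and 31.2% of those 14122. With the replicate block 4 were called, against 33.7% of all genes. DESeq2 called 1, against 24.7% of the genes for which it gave an adjusted p. An unadjusted edgeR p under 0.05 was found for 3 of the 10, and for 7422 of the 21400 genes. Leflunomide in control embryos lowered 3 of the 10, dld, tbx6 and msgn1, against 21.9% of all genes called in either direction. Among the 14122 genes at or above the lowest mean level of the 10, 30.6% were called in that comparison. With library totals alone as scaling 3 were also called there, dld lower and her1 and dlc higher, so that of the former 3 dld remained. Leflunomide in tif1g embryos gave 0 of 10 by edgeR against 0.617% of all genes. DESeq2 also gave 0, against 6.27% of the genes for which it gave an adjusted p. With the replicate block dlc and dld were called, against 7.09% of all genes. An unadjusted edgeR p under 0.05 was found there for 2 of the 10, and for 2981 of the 21400 genes. The difference between both knockdown effects, the interaction, gave 0 of 10 by edgeR against 0% of all genes. DESeq2 gave 0 as well, against 5.51% of the genes with its adjusted p. The replicate block called 1, tbx6, against 4.99% of all genes. An unadjusted edgeR p under 0.05 was found for 1 of the 10, and for 2560 of the 21400 genes.

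**Figure D1:**
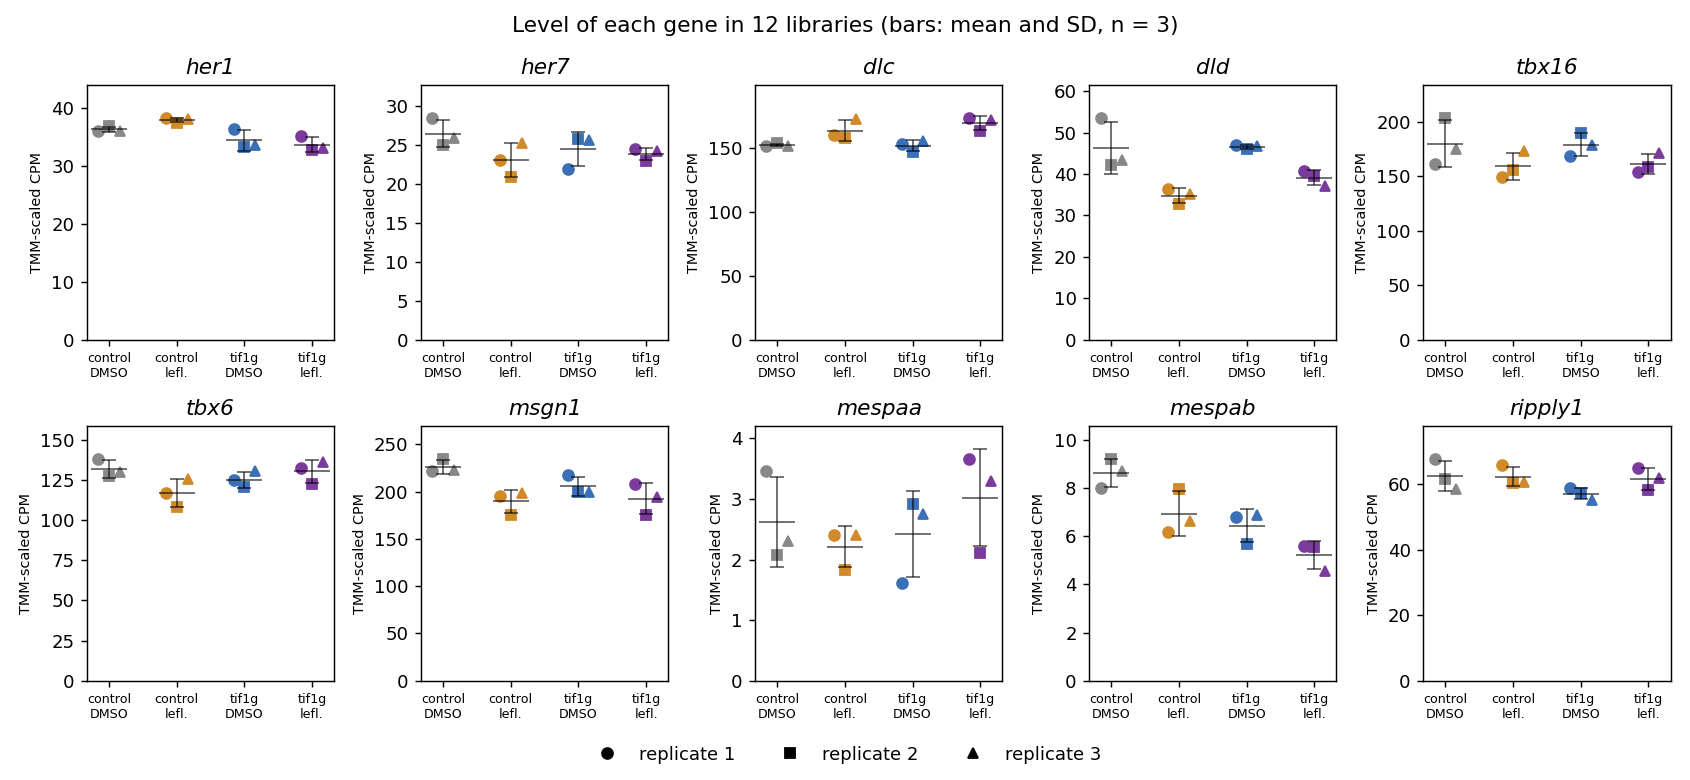
TMM-scaled CPM (y axis, from 0) of the 10 genes in the 12 libraries, by group (x axis), with the marker shape giving the replicate number and the bars the mean and SD of 3 libraries. In the dld panel all 6 leflunomide libraries lie below all 6 DMSO libraries, and in the mespab panel the control DMSO libraries lie above the 9 others, while the her1 and ripply1 panels are nearly flat.

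The clock repressors her1 and her7 encode bHLH proteins of the Hes/Her class. They are neighbours in the RefSeq gene order (assembly GRCz12tu), with 0 genes between them. her1 (ENSDARG00000014722) was measured at 35.9, 36.8 and 36.0 CPM in controls with DMSO and at 38.2, 37.4 and 38.1 in those with leflunomide, while the tif1g libraries gave 36.4, 33.1 and 33.6 without and 35.1, 32.7 and 33.1 with leflunomide. All 3 tif1g leflunomide libraries lay below all 3 control leflunomide libraries, whereas the tif1g DMSO and control DMSO libraries overlapped. The her1 change after knockdown was -0.08 ± 0.06 in DMSO (adjusted p = 0.391) and -0.17 ± 0.06 in leflunomide (adjusted p = 0.0612). The replicate block and library totals alone each made the latter a call (adjusted p = 0.0325 and 0.0476, alternatives from 0.0325 to 0.262). The her1 difference with leflunomide, 0.06 ± 0.06 in control and -0.03 ± 0.07 in tif1g embryos, did not pass in either (adjusted p = 0.537 and 0.899). In control embryos it was called as higher with library totals alone (0.20, adjusted p = 0.0384, alternatives from 0.0384 to 0.727). The spread of her1 within groups was small, a pooled coefficient of variation of 3.33%, where counting error alone would give 3.11%.

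her7 (ENSDARG00000017917) was measured at 28.4, 25.0 and 25.9 CPM in controls with DMSO and at 23.1, 20.8 and 25.3 in those with leflunomide, while the tif1g libraries gave 21.9, 25.8 and 25.6 without and 24.4, 23.0 and 24.2 with leflunomide. The groups overlapped in each of the 4 comparisons. The widest her7 difference was -0.20 ± 0.09 with leflunomide in control embryos (unadjusted p = 0.041, adjusted p = 0.131). After knockdown it stood at -0.12 ± 0.09 in DMSO (95% interval -0.30 to 0.07) and at 0.05 ± 0.09 in leflunomide (-0.14 to 0.24). Within a library, the ratio of her1 to her7 counts averaged 1.38 ± 0.106 (SD, n = 3) in controls with DMSO and 1.65 ± 0.146 with leflunomide, and 1.42 ± 0.210 and 1.41 ± 0.0384 in the respective tif1g groups. The control leflunomide ratios, 1.51 to 1.80, lay above the 1.26 to 1.48 of control DMSO. The tif1g DMSO ratios, 1.29 to 1.66, overlapped both, and those of tif1g leflunomide were 1.37 to 1.44. This ratio was not tested.

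The Delta ligands dlc and dld, which signal to Notch on neighbouring cells, stood on opposite sides with leflunomide, dld lower and dlc higher in every library. dld (ENSDARG00000008785) was measured at 53.5, 42.1 and 43.5 CPM in controls with DMSO and at 36.5, 32.8 and 35.1 in those with leflunomide, while the tif1g libraries gave 47.0, 46.0 and 46.7 without and 40.8, 39.5 and 37.1 with leflunomide. The lowest of the 6 DMSO libraries exceeded the highest of the 6 leflunomide libraries. Leflunomide lowered dld in control embryos by 0.41 ± 0.08 on the log2 scale, a fall of 25.0% (adjusted p = 0.0013), and the call held in all 20 alternatives tried (adjusted p up to 0.0211). In tif1g embryos its change was -0.25 ± 0.08 (unadjusted p = 0.00641, adjusted p = 0.16, lower in 3 of 3 replicate numbers). With the replicate block, which called 7.09% of all genes in that comparison, dld was called there too (adjusted p = 0.0138, alternatives from 0.0138 to 0.533). The dld effects of leflunomide in both kinds of embryo differed by 0.16 ± 0.12, which did not pass (adjusted p = 0.627). After knockdown dld differed by 0.01 ± 0.08 in DMSO and by 0.17 ± 0.08 in leflunomide, and neither passed (adjusted p = 0.968 and 0.148). The latter was called only with the replicate block among the 20 alternatives (adjusted p = 0.0424, range 0.0424 to 0.479).

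dlc (ENSDARG00000002336) was measured at 152, 154 and 152 CPM in controls with DMSO and at 160, 158 and 173 in those with leflunomide, while the tif1g libraries gave 153, 147 and 155 without and 174, 163 and 172 with leflunomide. All 6 leflunomide libraries lay above all 6 DMSO libraries. The dlc difference with leflunomide was 0.10 ± 0.05 in control embryos (unadjusted p = 0.0655, adjusted p = 0.182) and 0.16 ± 0.05 in tif1g embryos (unadjusted p = 0.00688, adjusted p = 0.164). In control embryos it was called with library totals alone as scaling (0.23, adjusted p = 0.0025, alternatives from 0.0025 to 0.638), and in tif1g embryos with the replicate block (0.16, adjusted p = 0.0304, range 0.0304 to 0.512). After knockdown dlc differed by -0.01 ± 0.05 in DMSO, with a 95% interval of -0.11 to 0.10, and by 0.05 ± 0.05 in leflunomide, with an interval of -0.06 to 0.16.

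The ratio of dlc to dld counts within a library depends on no scaling between libraries. It was 2.84, 3.65 and 3.49 in control DMSO, 3.27, 3.20 and 3.33 in tif1g DMSO, 4.38, 4.82 and 4.93 in control leflunomide, and 4.26, 4.14 and 4.63 in tif1g leflunomide. Every leflunomide library had a higher ratio than every DMSO library, with either morpholino. The mean ratio was 3.33 ± 0.433 and 3.26 ± 0.0656 (SD, n = 3) in the control and tif1g DMSO groups, and 4.71 ± 0.289 and 4.34 ± 0.257 in the respective leflunomide groups. The ratio is given as a description, without a test.

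**Figure D2:**
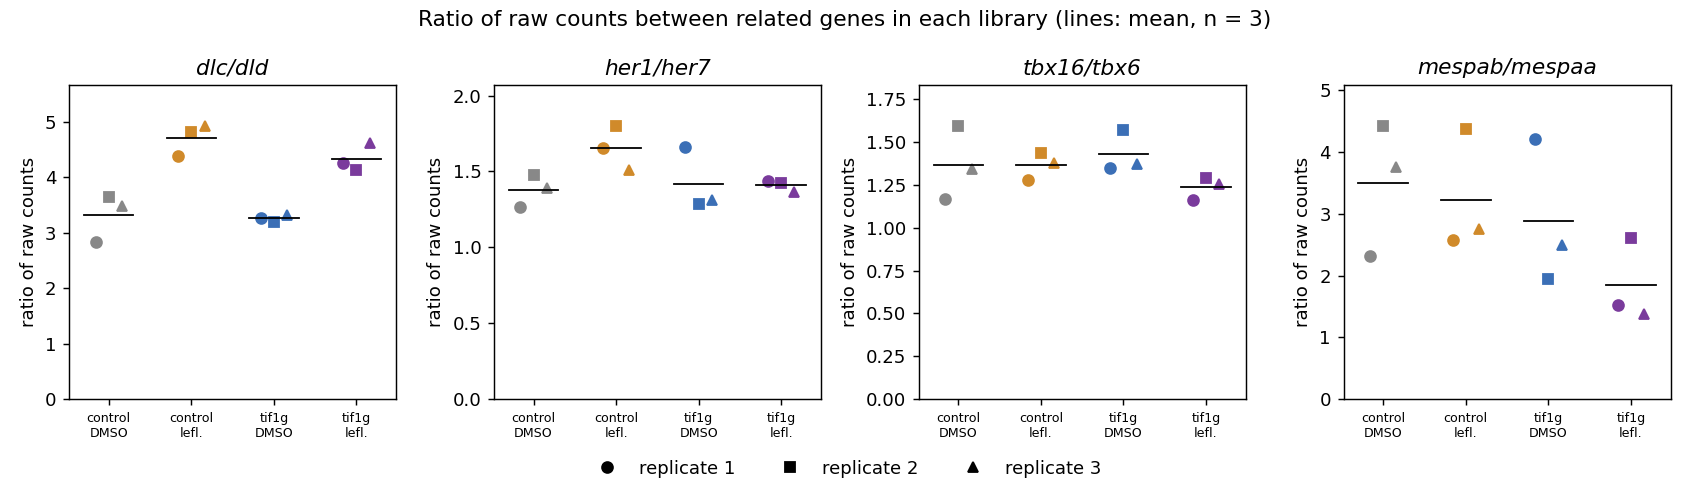
Ratio of raw counts between related genes (y axis, from 0) in each library, by group (x axis), with the marker shape giving the replicate number and lines the mean of 3 libraries. The dlc to dld ratios of the leflunomide libraries, 4.14 to 4.93, lie above the 2.84 to 3.65 of the DMSO libraries, while the mespab to mespaa ratios overlap between the groups.

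The presomitic mesoderm regulators tbx16, tbx6 and msgn1 all stood lower with leflunomide in control embryos, and tbx6 and msgn1 were called there. msgn1 (ENSDARG00000070546) encodes a bHLH factor that drives mesodermal progenitors of the tailbud into the presomitic mesoderm. It was measured at 221, 234 and 222 CPM in controls with DMSO and at 195, 175 and 198 in those with leflunomide, while the tif1g libraries gave 217, 200 and 199 without and 207, 175 and 194 with leflunomide. The control DMSO libraries were higher than the 9 others. Leflunomide lowered msgn1 in control embryos by 0.25 ± 0.07 on the log2 scale (-16.1%, adjusted p = 0.00924). The call was lost with library totals alone (-0.12, adjusted p = 0.187), without control leflunomide replicate 2 (-0.20, adjusted p = 0.0657) and without replicate 2 of all groups (-0.17, adjusted p = 0.118), and the alternatives ran from 0.000147 to 0.187. In tif1g embryos the change was -0.09 ± 0.07 (adjusted p = 0.57). After knockdown in DMSO msgn1 stood at -0.14 ± 0.07 (unadjusted p = 0.0498, adjusted p = 0.118), and the replicate block made this a call (adjusted p = 0.0259, alternatives from 0.0259 to 0.47). With that block 2 of the 10 genes, msgn1 and mespab, were called in this comparison, against 42.2% of all genes.

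tbx6 (ENSDARG00000011785), once named tbx24, encodes the T-box factor that zebrafish need to form somite boundaries. It was measured at 138, 128 and 130 CPM in controls with DMSO and at 117, 108 and 125 in those with leflunomide, while the tif1g libraries gave 125, 120 and 130 without and 132, 123 and 136 with leflunomide. The control leflunomide libraries lay below those of control DMSO and overlapped both tif1g groups. The tbx6 fall with leflunomide in control embryos, 0.18 ± 0.06 on the log2 scale, was close to the threshold (adjusted p = 0.0494) and was called in 6 of 20 alternatives, with adjusted p from 0.00396 to 0.627. It was lost with library totals alone (-0.04) and without any of the control DMSO libraries or without control leflunomide replicate 1 or 2, where it stood between -0.20 and -0.12. In tif1g embryos the tbx6 change was 0.06 ± 0.06 (adjusted p = 0.747). After knockdown tbx6 stood at -0.07 ± 0.06 in DMSO and at 0.16 ± 0.06 in leflunomide, and neither passed (adjusted p = 0.386 and 0.0705).

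The interaction of tbx6, 0.23 ± 0.09 (unadjusted p = 0.0154, adjusted p = 0.271), had the smallest p of the 10. It was called with the replicate block (adjusted p = 0.035, alternatives from 0.035 to 0.831), as 4.99% of all genes were. The tbx6 change after knockdown in leflunomide was also called with the block (0.16, adjusted p = 0.00851, range 0.00851 to 0.299). In all 4 groups tbx6 was lowest in replicate 2. Removing the replicate number from its log2 values took the within-group SD from 0.0780 to 0.0464.

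tbx16 (ENSDARG00000007329), the spadetail gene, encodes a T-box factor by which trunk mesoderm cells move into paraxial positions. It was measured at 161, 203 and 175 CPM in controls with DMSO and at 149, 155 and 173 in those with leflunomide, while the tif1g libraries gave 168, 189 and 179 without and 154, 158 and 171 with leflunomide. The groups overlapped in every comparison, and in all 4 groups replicate 1 was the lowest. With leflunomide tbx16 stood at -0.18 ± 0.08 in control embryos (unadjusted p = 0.0402, adjusted p = 0.129), and in tif1g embryos at -0.15 ± 0.08 (unadjusted p = 0.0729, adjusted p = 0.414). The fall in control embryos was called with the replicate block (adjusted p = 0.0131, alternatives from 0.0131 to 0.745). That block called 4 of the 10 genes with leflunomide in control embryos, dld, tbx16, tbx6 and msgn1, all lower, against 31.4% of all genes. After knockdown tbx16 stood at -0.01 ± 0.08 in DMSO (95% interval -0.17 to 0.16) and at 0.02 ± 0.08 in leflunomide (-0.15 to 0.18).

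Of the genes of the forming boundary among the 10, mespab was the one called after knockdown in DMSO. Its product is a bHLH factor of the Mesp family that acts in the anterior presomitic mesoderm, and the gene lies next to mespbb in the RefSeq order. mespab (ENSDARG00000068761) was covered by 130 to 261 counts a library. It was measured at 8.01, 9.19 and 8.70 CPM in controls with DMSO and at 6.18, 7.98 and 6.61 in those with leflunomide, while the tif1g libraries gave 6.79, 5.66 and 6.88 without and 5.59, 5.53 and 4.55 with leflunomide. Each tif1g group lay wholly below the control group of the same treatment. Knockdown lowered mespab by 0.42 ± 0.15 on the log2 scale in DMSO (adjusted p = 0.0317). That call was lost with library totals alone (-0.35, adjusted p = 0.0776), without control DMSO replicate 2 (0.0943) or 3 (0.0711), without tif1g DMSO replicate 2 (0.137) and without replicate 1, 2 or 3 of all groups (0.0628, 0.257 and 0.0863). The alternatives ran from 0.0135 to 0.257. In leflunomide the mespab change was -0.41 ± 0.15 (adjusted p = 0.0536), and with the replicate block it was called (adjusted p = 0.0255, range 0.0255 to 0.256). Both knockdown effects on mespab differed by 0.02 ± 0.21 (adjusted p = 0.989). With the block 4 of the 10 genes were called after knockdown in leflunomide, her1 and mespab lower and dld and tbx6 higher, against 33.7% of all genes.

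With leflunomide mespab stood at -0.32 ± 0.14 in control embryos (adjusted p = 0.13) and at -0.30 ± 0.15 in tif1g embryos (adjusted p = 0.38), lower in 3 of 3 replicate numbers in both. mespaa (ENSDARG00000017078), which encodes another Mesp factor, had only 46 to 104 counts a library. It stood at 3.47, 2.08 and 2.31 CPM in controls with DMSO and at 2.41, 1.82 and 2.41 in those with leflunomide, while the tif1g libraries gave 1.61, 2.92 and 2.75 without and 3.65, 2.12 and 3.29 with leflunomide. These groups overlapped throughout, and the pooled coefficient of variation, 25.5%, was the widest of the 10. Its changes of -0.11 ± 0.28 and 0.45 ± 0.27 after knockdown in DMSO and leflunomide did not pass (adjusted p = 0.798 and 0.264). Counting error alone would give mespaa a coefficient of variation of 11.6%. The count ratio of mespab to mespaa averaged 3.50 ± 1.08 in controls with DMSO and 3.23 ± 0.994 with leflunomide, and 2.89 ± 1.19 and 1.84 ± 0.673 in the respective tif1g groups (SD, n = 3), with overlap between all groups.

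ripply1 (ENSDARG00000054103) encodes a Groucho-binding repressor that ends T-box activity at the boundary. It was measured at 67.6, 61.7 and 58.6 CPM in controls with DMSO and at 65.9, 60.5 and 60.8 in those with leflunomide, while the tif1g libraries gave 58.8, 57.4 and 55.3 without and 65.0, 58.1 and 62.0 with leflunomide. All 4 comparisons overlapped. Its change after knockdown was -0.13 ± 0.07 in DMSO (adjusted p = 0.134) and -0.02 ± 0.07 in leflunomide (adjusted p = 0.891). With leflunomide it was -0.01 ± 0.07 in control embryos, with a 95% interval of -0.14 to 0.13, and 0.11 ± 0.07 in tif1g embryos (adjusted p = 0.484).

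**Figure D3:**
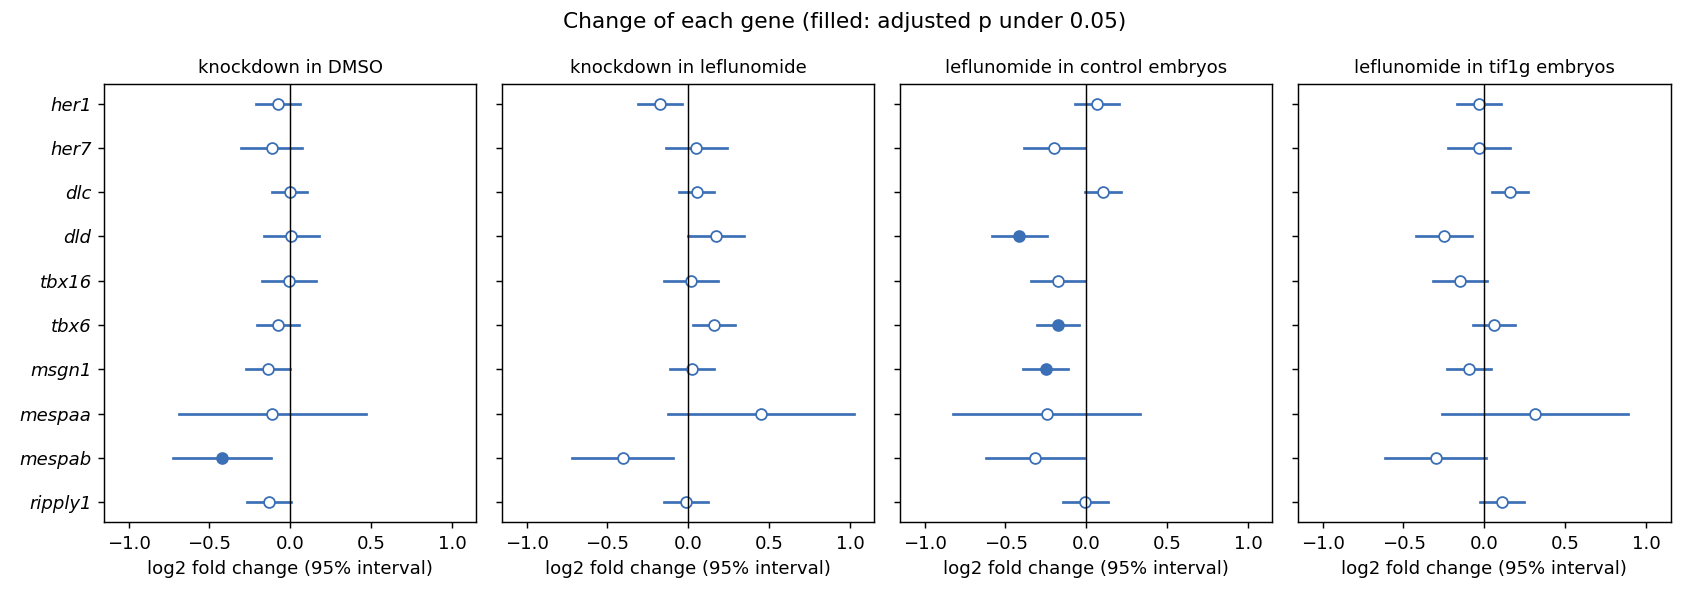
Log2 fold change with its 95% interval (x axis) of the 10 genes (y axis) in the 4 comparisons, from edgeR, with filled points for genes at an adjusted p under 0.05. Filled points are mespab after knockdown in DMSO and dld, tbx6 and msgn1 with leflunomide in control embryos, while the interval of mespaa is the widest in every panel.

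Contrasts that average both morpholinos, or both treatments, use all 12 libraries and were added after seeing the data. Averaged over both kinds of embryo, leflunomide changed 5 of the 10 genes, against 22.7% of all genes. It lowered dld by 0.33 ± 0.06 (adjusted p = 0.000443), msgn1 by 0.17 ± 0.05 (adjusted p = 0.0106), tbx16 by 0.16 ± 0.06 (adjusted p = 0.0438) and mespab by 0.31 ± 0.10 (adjusted p = 0.0377) on the log2 scale, and raised dlc by 0.13 ± 0.04 (adjusted p = 0.0153). The dld call held in all 19 alternatives. With library totals alone dlc and dld were called, ripply1 was called too (0.14, adjusted p = 0.027, alternatives from 0.027 to 0.836), and tbx16, msgn1 and mespab were not (adjusted p = 0.38, 0.187 and 0.146). Leaving out single libraries or replicate numbers gave 2 to 5 called genes, and only dld and msgn1 remained without replicate 1 of all groups. The tbx16 and mespab calls were kept in 8 and 9 of the 19 alternatives.

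Averaged over both treatments, the knockdown changed 2 of the 10 genes, against 42.5% of all genes. mespab was lower by 25.0% (-0.41 ± 0.10, adjusted p = 0.00331), and this was called in 18 of 19 alternatives, the exception being the fit without replicate 2 (-0.31, adjusted p = 0.0691). her1 was lower by 8.31% (-0.13 ± 0.05, adjusted p = 0.0349), and this was called in 6 of 19 alternatives (range 0.0193 to 0.217). The number of called genes ran from 0 without replicate 2 to 3 without control DMSO replicate 1. For the other 8 genes the averaged knockdown change lay between -0.07 (ripply1) and 0.17 (mespaa).

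A wider set of clock and boundary genes was called after knockdown about as often as genes in general. Of 14 such genes tested, 1 was higher and 4 lower in DMSO (median -0.42), where 32.8% of all genes were called, and 2 were higher and 2 lower in leflunomide (median -0.24), where 23.8% were. Adding the block brought the lower ones to 6 and 4, and the calls of all genes to 42.2% and 33.7%. With leflunomide in control embryos 0 were higher and 1 lower by edgeR, against 21.9% of all genes called, and 0 and 2 by DESeq2. lfng, which encodes a glycosyltransferase that modifies Notch, stood at 268 ± 3.23 CPM in DMSO with the control morpholino and at 327 ± 11.4 with that against tif1g (SD, n = 3). The lfng rise was 0.29 ± 0.05 in DMSO (adjusted p = 0.000183) and 0.41 ± 0.05 in leflunomide (adjusted p = 5.54e-06), and it held in all alternatives. Among the genes of the Her and Hes class, her15.2 fell by 0.49 ± 0.14 on the log2 scale in DMSO (adjusted p = 0.00947), a call lost without tif1g DMSO replicate 2 (adjusted p = 0.0633) and without replicate 1 or 2 of all groups (adjusted p = 0.086 and 0.112, alternatives reaching 0.112). Its counts, and those of her4.1 (-1.25 ± 0.36, called in 16 of 20 alternatives and named after its values were seen), may share reads with near-identical copies.

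Of the genes named hes6, ENSDARG00000007097 fell in DMSO from 10.0 ± 0.448 to 6.52 ± 1.09 CPM (-0.62 ± 0.13, adjusted p = 0.00121), and its fall after knockdown in leflunomide, 0.37 ± 0.13 on the log2 scale (adjusted p = 0.0426), was called in 9 of 20 alternatives. The other, ENSDARG00000019335, stood at 0.11 ± 0.05 after knockdown in DMSO (adjusted p = 0.114), rose after knockdown in leflunomide by 0.27 ± 0.05 (adjusted p = 0.00102), and was the 1 gene lower with leflunomide in control embryos (-0.19 ± 0.05, adjusted p = 0.0161, called in 12 of 20 alternatives). The Mesp family gene mespbb, the neighbour of mespab, was chosen after its values were seen. After knockdown in DMSO it was lower (-0.55 ± 0.17, adjusted p = 0.0168), a call lost without control DMSO replicate 1 or tif1g DMSO replicate 1 or 2 (adjusted p = 0.0909, 0.05 and 0.0892) and without replicate 1 or 2 of all groups (0.192 and 0.105), with alternatives from 0.00144 to 0.192. After knockdown in leflunomide it stood at 0.05 ± 0.17 (adjusted p = 0.86), and the difference between these effects did not pass (0.61 ± 0.24, adjusted p = 0.298). Its paralog mespba stood at -0.07 ± 0.22 and 0.31 ± 0.22, neither of them called (adjusted p = 0.848 and 0.34).

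Genes of the Notch pathway moved both ways after knockdown. Of 19 tested, 7 were higher and 5 lower in DMSO (median 0.06), where 32.8% of all genes were called. In leflunomide 6 were higher and 4 lower, where 23.8% of all genes were called. Beside dlc and dld, the Delta gene dlb was lower in DMSO (-0.62 ± 0.16, adjusted p = 0.00727), a call lost without replicate 3 of all groups (adjusted p = 0.0952, the highest of 20 alternatives), and it was named after its values were seen. dll4, the Delta ligand best known from blood vessels, rose from 4.24 ± 0.822 to 10.4 ± 1.19 CPM in DMSO (1.30 ± 0.17, adjusted p = 9.66e-06). numb, an inhibitor of Notch, rose by 0.64 ± 0.07 (adjusted p = 1.22e-06). adam10b, which encodes a protease of the family that cleaves Notch, fell by 0.65 ± 0.09 on the log2 scale (adjusted p = 3.3e-05), and dtx4, a ubiquitin ligase gene of the Deltex family, fell by 0.65 ± 0.09 (adjusted p = 3.7e-05). dll4, numb, adam10b and dtx4 also changed in these directions in leflunomide, and each was called in all 20 alternatives of both knockdown comparisons. The related adam10a, named after its values were seen, went the other way. After knockdown in DMSO its change lay between 0.14 and 0.26 over the 20 alternatives, called as higher in 16. After knockdown in leflunomide it lay between 0.22 and 0.28, called as higher in all 20. With leflunomide in control embryos 21.9% of all genes were called, 40.4% of those calls being higher. Library totals alone called 22.2%, with 74.4% of the calls higher. Of the 19, 4 were higher and 1 lower there, or 7 and 0 with library totals alone. The higher ones were numb (0.21 ± 0.07), maml1 (0.33 ± 0.06), maml3 (0.36 ± 0.07) and mib2 (0.40 ± 0.13), the last 3 of them and the lower adam10a (-0.17 ± 0.05) named after their values were seen. maml1 and maml3 were called in all 20 alternatives, mib2 in 10, adam10a in 13 and numb in 7 (numb adjusted p up to 0.147 over the 20). maml1 and maml3 encode Mastermind coactivators of Notch, and mib2 a ligase that acts on its ligands. Knockdown in DMSO also raised maml1 and maml3, with calls in all 20 alternatives (0.28 to 0.42 and 0.41 to 0.54). After knockdown in leflunomide maml3 was called as higher in 14 of 20 and maml1 in 0.

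**Figure D4:**
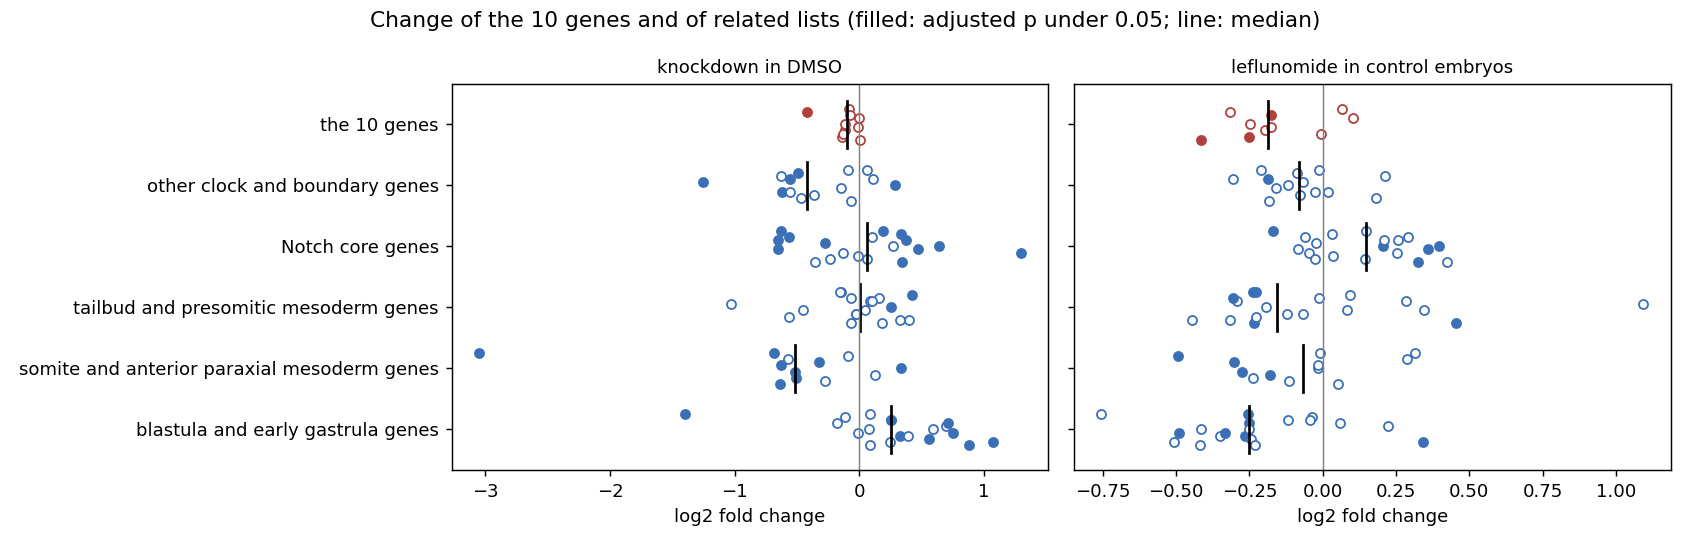
Log2 fold change (x axis, separate scales) of the 10 genes and of 5 related gene lists (y axis, 1 point per gene, spread vertically for sight only) after knockdown in DMSO and with leflunomide in control embryos. Filled points have an adjusted p under 0.05 and lines are medians. In the left panel the 10 genes lie between -0.42 and 0.01 and the somite list has a median of -0.51, and in the right panel the 10 genes have a median of -0.19.

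Markers of somites and anterior paraxial mesoderm, the descendants of the presomitic cells, had a negative median change after knockdown, with genes called both ways. Their list was chosen with earlier results of these data known. The list held 23 symbols, and the 12 genes found in the count table were tested. Of these 12, 1 was higher and 7 lower in DMSO (median -0.51), and 2 were higher and 4 lower in leflunomide (median -0.28), or 2 and 7 with the replicate block. Of all genes, 32.8% were called in DMSO and 23.8% in leflunomide, or 33.7% there with the block. The summed level of the 12 markers was 787 to 853 CPM in control DMSO against 675 to 697 in tif1g DMSO. unc45b, a myosin chaperone gene, fell by 0.52 ± 0.05 on the log2 scale in DMSO (adjusted p = 8.55e-07), from 229 ± 7.61 to 160 ± 6.52 CPM. tcf15, which encodes a bHLH factor of forming somites, fell by 0.63 ± 0.11 (adjusted p = 0.000281). The muscle determination gene myf5 fell by 0.33 ± 0.07 (adjusted p = 0.000874), and these 3 calls in DMSO held in all 20 alternatives. After knockdown in leflunomide unc45b was called as lower in all 20 alternatives (-0.31 to -0.25) and tcf15 in 14 (-0.42 to -0.21). myf5 was not called there in any of the 20 (-0.21 to -0.09, adjusted p from 0.0692 to 0.497). In leflunomide, itga5, an integrin gene that acts at somite boundaries, rose by 0.28 ± 0.05 (adjusted p = 0.000869). Of 18 tailbud and presomitic genes, 2 were higher and 1 lower in DMSO (median 0.01), and 3 were higher and 0 lower in leflunomide by edgeR, with 3 and 0 by DESeq2. With the replicate block the counts were 5 and 2, and 6 and 0, against 42.2% and 33.7% of all genes. wnt3a, which encodes a Wnt ligand of the tailbud, rose by 0.42 ± 0.10 in DMSO (adjusted p = 0.00417), lost only without replicate 3 of all groups (adjusted p = 0.0586) among the 20 alternatives. snai1a rose by 0.26 ± 0.07 (adjusted p = 0.0117, called in 16 of 20 alternatives), and the 1 lower gene, pcdh8, was named after its values were seen (-0.14 ± 0.05, called in 11 of 20). In leflunomide the 3 higher genes were hoxb1b (0.36 ± 0.09), the tailbud homeobox gene eve1 (0.67 ± 0.17) and pcdh8 (0.15 ± 0.05), called in 19, 16 and 10 of 20 alternatives. The adjusted p of pcdh8 reached 0.315 over these 20.

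With leflunomide in control embryos, 1 of the 18 tailbud and presomitic genes was higher and 4 were lower (median -0.16), or 2 and 8 with the replicate block and 1 and 0 with library totals alone. Of all genes, 21.9% were called there, or 31.4% with the block and 22.2% with library totals alone. The higher gene, also named after its values were seen, was hoxa9a (0.46 ± 0.10, called in 18 of 20 alternatives). The 4 lower genes were tbxta (-0.23 ± 0.07), cdx4 (-0.23 ± 0.07), pcdh8 (-0.24 ± 0.05) and hoxb1b (-0.31 ± 0.09), and of these hoxb1b was named by rule and the other 3 after their values were seen. tbxta encodes the Brachyury factor of tailbud and notochord, cdx4 a caudal factor, and pcdh8 a protocadherin of paraxial mesoderm. All 4 calls were lost with library totals alone (adjusted p = 0.361, 0.286, 0.13 and 0.168). Of the 12 somite genes, 0 were higher and 4 lower by edgeR and by DESeq2 (median -0.07, or 0.07 with library totals alone, which left 1 lower). myf5 fell by 0.30 ± 0.07 on the log2 scale (adjusted p = 0.00261) and unc45b by 0.28 ± 0.05 (adjusted p = 0.00115), and the others were itga5 (-0.18 ± 0.05) and aldh1a2 (-0.49 ± 0.13), a retinoic acid synthesis gene named after its values were seen. The itga5 and aldh1a2 calls held in 13 and 15 of 20 alternatives. The myf5 and unc45b calls were lost with library totals alone (adjusted p = 0.0628 and 0.0678) and without replicate 1 of all groups (0.0707 and 0.0511). In tif1g embryos 0 genes of the clock, Notch, tailbud and somite lists were called with leflunomide by edgeR, against 0.617% of all genes. DESeq2 called 1 tailbud gene as lower. With the replicate block 2 Notch genes were higher, and 1 tailbud and 1 somite gene lower, against 7.09% of all genes.

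Markers of other tissues and of earlier stages moved in the same comparisons. Of 19 genes of the blastula and early gastrula, 8 were higher and 1 lower after knockdown in DMSO, 11 higher and 1 lower after knockdown in leflunomide, and 1 higher and 5 lower with leflunomide in control embryos (12 lower with the replicate block, 2 with library totals alone). Of all genes, 32.8%, 23.8% and 21.9% were called in these comparisons, in that order. The last share was 31.4% with the block and 22.2% with library totals alone. The summed level of the 19 genes was 821 to 1019 CPM in controls with DMSO and 711 to 838 with leflunomide, and 978 to 1155 and 931 to 1052 in the respective tif1g groups. Of 8 lateral and intermediate mesoderm markers, 4 were lower and 0 higher after knockdown in DMSO by edgeR, with summed levels of 102 to 123 CPM in control and 88.5 to 96.3 in tif1g DMSO. Of 7 epidermal markers, 2 were lower and 1 higher with leflunomide in control embryos, where their sum was 5264 to 5617 CPM against 6314 to 6783 in control DMSO. The 2 lower ones, krt18a.1 and krt8, made up most of that sum. Their means were 3170 and 2925 CPM in control DMSO, and 2654 and 2388 in control leflunomide. Of 7 endoderm and 11 axial mesoderm markers, 3 and 3 were lower and 0 and 0 higher in that comparison by edgeR, against 21.9% of all genes called. With library totals alone 1 endoderm marker was lower and 1 higher, and 1 axial marker was lower and 2 higher. Of 12 neural plate markers, 4 were higher and 3 lower after knockdown in DMSO. The part of these shifts in the changes of the 10 genes was not tested.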

How the data were processed

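The authors deposited unnormalized whole-number read counts for each gene of 12 directional libraries depleted of ribosomal RNA. Per the submitters' processing notes the authors used FastQC, cutadapt, TopHat2 2.0.11, genome build GRCz11, HTSeq and Cufflinks 2.2.1. The sources used here give neither strand setting nor annotation release, and genes that overlap on opposite strands may share reads. Symbols came from a gene name table that covered 29201 of 32520 identifiers. No genome or sequence table was used.

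In R 4.3.3, edgeR 4.0.16 (filterByExpr, TMM, robust quasi-likelihood fit with 4 group means, Benjamini-Hochberg adjustment) tested 21400 genes, after being tested on simulated data. The biological coefficient of variation was 0.113. DESeq2 1.42.0, library totals alone, no low-count filter, a replicate block, only the 2 groups compared, and leaving out libraries or replicate numbers were alternatives.

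Named are the 10 genes, of every other list up to 4 genes with the smallest p over both knockdown comparisons (those of the closest lists in the text), and genes of alike profile for the 2 of the 10 with the widest range. The members and lists were chosen with earlier results of these data known. Listed symbols without a match in the count table dropped out. The 23 symbols of the somite list gave 12 genes, the 29 of the Notch list 20, and the 19 of the clock list 14. The main fit left the libraries unpaired, and the replicate number entered the model only as the block of an alternative. That block rests on clutches having been split over the treatments, per the series text. Deviations from the group means correlated at 0.156 to 0.274 over the 18 pairs of libraries with the same number. Over the 36 pairs with different numbers they correlated at -0.170 to -0.0273. Centring on the group means ties these negative values to the positive ones, so they add no separate evidence. For all 12 libraries, the best match in another group by these correlations was a library of the same number.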

Additional observations from a re-analysis of the deposited data

How the results depend on the processing

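Over the 5 comparisons, 990 values of the 10 genes were recomputed under the alternatives. Of these, 949 kept their direction and side of the threshold or were uncalled throughout (61 of them changed sign without ever being called), 24 fell out of the calls, 17 entered them, and 0 calls turned direction. The causes were not tested. The number of the 10 genes called moved as follows. After knockdown in DMSO it was 1, or 0 with library totals alone and 2 with the replicate block, and 0 to 1 on leaving out libraries or replicate numbers. After knockdown in leflunomide it was 0, or 1 with DESeq2, 1 with library totals alone, 4 with the block, and 0 to 1 on leaving out. For leflunomide in control embryos it was 3 (dld, tbx6 and msgn1), or 4 with the block, which added tbx16, and 1 to 3 on leaving out. With library totals alone it was again 3, but her1 and dlc, both higher, took the place of tbx6 and msgn1. For leflunomide in tif1g embryos it was 0, or 2 with the block. For the interaction it was 0, or 1 with the block. For averaged leflunomide it was 5, or 3 with library totals alone, and 2 to 5 on leaving out. For the averaged knockdown it was 2, or 1 with library totals alone, 1 with no low-count filter, and 0 to 3 on leaving out. Beyond these, the replicate block changed no call among the 10 genes.

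Over all genes, the calls of knockdown in leflunomide (5094) ranged from 3006 without replicate 3 to 5289 on leaving out, and those of leflunomide in control embryos (4695) from 2114 without replicate 2 to 4641. For leflunomide in tif1g embryos the 132 calls became 611 with DESeq2, 66 with library totals alone, 1518 with the replicate block, 40 with only the 2 groups compared, and 0 to 208 on leaving out. The 0 interaction calls of edgeR (2560 genes at an unadjusted p under 0.05) became 343 with DESeq2, 3 with library totals alone, 1 with no low-count filter and 1067 with the replicate block. Library totals alone moved the median change of all genes with leflunomide in control embryos from 0.02 to 0.16, and the share of calls that were higher from 40.4% to 74.4%. That share went from 47.5% to 59.9% after knockdown in DMSO and from 31.1% to 77.3% for leflunomide in tif1g embryos. The interaction has no fit with only 2 groups, and a planned count of promoter motifs was not run. Counting error alone would give coefficients of variation of 1.30% (msgn1) to 11.6% (mespaa).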

Other observations

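The closest profiles to those of mespaa and mespab, the genes of the 10 with the widest range over the 12 libraries, were sought among 12266 named genes by the root mean square distance of centred log2 CPM. For mespab the nearest were ccdc25 (0.118), grhl2a (0.123) and eefsec (0.127), against a root mean square of 0.287 of the mespab profile itself. For mespaa they were fsd1l (0.216), lcmt2 (0.237) and gata4 (0.240), against 0.345, and none of the 3 nearest was another of the 10 genes in either case. The mespaa profile rests on only 46 to 104 counts a library, with groups that overlapped throughout. Whether the nearest of 12266 genes are closer than such a search would give by itself was not tested.

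The 10 genes differed in how much libraries of 1 group varied. The pooled coefficient of variation was 3.33% and 3.34% for her1 and dlc, 5.40% and 5.43% for tbx6 and ripply1, 6.07% for msgn1, 7.59% and 7.66% for her7 and dld, 8.19% for tbx16, 10.8% for mespab and 25.5% for mespaa. The median over the 14122 tested genes at or above the mean level of mespaa was 8.54%. Removing the replicate number took the within-group SD of the log2 values from 0.0779 to 0.0459 for ripply1 and from 0.117 to 0.0917 for tbx16. The same step raised that SD for her7 (0.110 to 0.114), mespaa (0.378 to 0.398) and mespab (0.155 to 0.171).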
